A study of Mus musculus with 6 samples.

Results

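Nocturnin (Noct) and 5 further genes known as outputs of the circadian clock were followed in disome profiles of mouse liver: Nampt, Upp2, Usp2, Wee1 and Bhlhe40. A disome footprint is messenger RNA shielded from nuclease by a pair of ribosomes pressed together, so its level on a gene depends on the amount of transcript, on how often it is translated and on how often ribosomes stack, and these cannot be told apart here. The members were fixed as a list of 7 gene identifiers paired with symbols, chosen from genes with known daily rhythms and with the disome values of these time points in view. All levels and differences of these genes are therefore a description, and no test on them is offered as support. Of the 7, 6 were measured, out of 8941 genes in all, and Bhlhe41 was not analysed here.

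The libraries came from liver of male C57BL/6JRj mice, 11 to 12 weeks old, held for 2 weeks in 12 h of light and 12 h of dark and also sampled under that cycle. No genotype, drug or diet is named in the labels, and all lysates contained cycloheximide, which halts ribosomes, and were digested with 650 U RNase I. Time points are zeitgeber times (ZT), counted in h from the moment the lights come on: ZT0, ZT2 and ZT12 had 2 libraries each, and each library pooled the livers of 2 mice, so n counts libraries and the spread between animals is partly averaged. Levels are RPKM, reads per kilobase of coding length after scaling by library. Whole reads could be recovered from the RPKM steps and totalled 6346387 to 12322651 per library, with both ZT12 libraries the deepest. The ZT2 libraries listed more genes at 0 (97 and 250) than the ZT0 libraries (4 each) or the ZT12 libraries (4 and 52). The tables carry no gene names, so liver markers could not be matched and the tissue label was not checked against them. In whole liver, fewer cells of a type and less RNA per cell cannot be told apart.

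In the mammalian clock, BMAL1 and CLOCK switch on genes that carry E-boxes in their regulatory DNA, among them the PER and CRY repressors, which then shut this activity down again each day. The same factors, with the REV-ERB and ROR receptors and the D-box-binding proteins DBP, TEF and HLF, drive output genes that carry the rhythm into metabolism, protein turnover and the cell cycle. In liver such outputs link the time of day to feeding, to the supply of NAD and to nucleotide handling.

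Promoter sequence is shown for Noct, with the largest ratio of ZT12 to ZT2 level, and Upp2, with the highest level, because the clock factors above bind DNA. The RefSeq promoter table (build GRCm38.p6) matched 4 of the 6 genes, Noct, Nampt, Upp2 and Usp2, with 5 windows of 250 bases before and 50 after a start site. The stretches below are the 250 bases before a start site, and capitals mark the loose E-box letters CANNTG. Noct lies on the plus strand, at chr3:51224197-51224446, and the second of the 2 Upp2 start sites, shown because the first held none of the letters searched, also lies on the plus strand, with its stretch at chr2:58754934-58755183.
Noct: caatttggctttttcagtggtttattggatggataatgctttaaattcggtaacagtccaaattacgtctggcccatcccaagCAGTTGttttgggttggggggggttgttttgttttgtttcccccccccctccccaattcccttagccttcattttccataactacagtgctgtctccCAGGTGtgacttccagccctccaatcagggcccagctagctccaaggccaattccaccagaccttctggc
Upp2: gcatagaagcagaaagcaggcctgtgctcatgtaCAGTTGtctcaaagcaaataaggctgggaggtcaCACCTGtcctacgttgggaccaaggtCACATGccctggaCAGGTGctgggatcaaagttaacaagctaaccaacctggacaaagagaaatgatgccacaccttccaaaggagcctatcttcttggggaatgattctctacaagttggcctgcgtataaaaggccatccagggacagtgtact
At least 1 CANNTG was present in 72.31% of 32851 windows of 300 bases, so a match as such is common. The Noct stretch held 2 matches and the Upp2 stretch 4, and how often windows hold that many was not counted. Nampt held the match CAGCTG 105 bases before its start site. The first Upp2 window and the Usp2 window held no CANNTG, nor the receptor and TATA letters given next. The Usp2 window, chr9:44084670-44084969 on the plus strand, lies inside the gene (chr9:44067021-44095627). The sequence at the outer end of Usp2 was therefore not searched. The strict E-box CACGTG (7.15% of windows), the variant CACGTT (4.68%), the D-box letters TTATGTAA (0.94%) and the CRE letters TGACGTCA (1.79%), each read on both strands, were in none of the 5 windows (0 of 5). CACGTG is a special case of CANNTG, and no match says only that these letters lie outside the window. AGGTCA, the core letters bound by ROR and REV-ERB receptors (16.26% of windows), occurred in the second Upp2 window 188 and 160 bases before the start site, and the latter copy overlaps a CANNTG match. The same Upp2 window held TATAAA (13.62% of windows) 29 bases before the start site. TGACG, the opening letters of the CRE (20.81% of windows), occurred in Nampt 135 bases before its start site. These letters also began 4 bases before the start site in Usp2 and 5 bases after it in Noct. Nampt had an AGGTCA 151 bases before its start site on chromosome 12, in the stretch chr12:32820169-32820204 of the plus strand, with AGGTCA in capitals.
Nampt: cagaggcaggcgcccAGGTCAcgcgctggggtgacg
The upstream stretches were GC-rich in Nampt (75.6%), in Usp2 (71.6%) and at the first Upp2 start site (73.2%), against 49.6% in Noct and 49.2% at the second Upp2 start site. A match of letters is a description and not evidence of binding. Which start site of Upp2 or of Usp2 was used in these livers was not tested.

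All 6 genes had their highest disome level at ZT12, when the lights go off. Both ZT12 libraries lay above all 4 libraries of ZT0 and ZT2 for every one of them (6 of 6), a pattern that 12.4% of the 8355 tested genes showed. The ratio of mean RPKM at ZT12 to ZT0 ran from 1.92 for Bhlhe40 to 9.35 for Usp2, and that of ZT12 to ZT2 from 3.45 for Nampt to 39.5 for Noct. Because the members were proposed with these values known, the count is not read as a finding about them. Wee1 was also tested only through its ZT12 libraries, which lifted its mean over the filter of 1 RPKM.

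**Figure D1:**
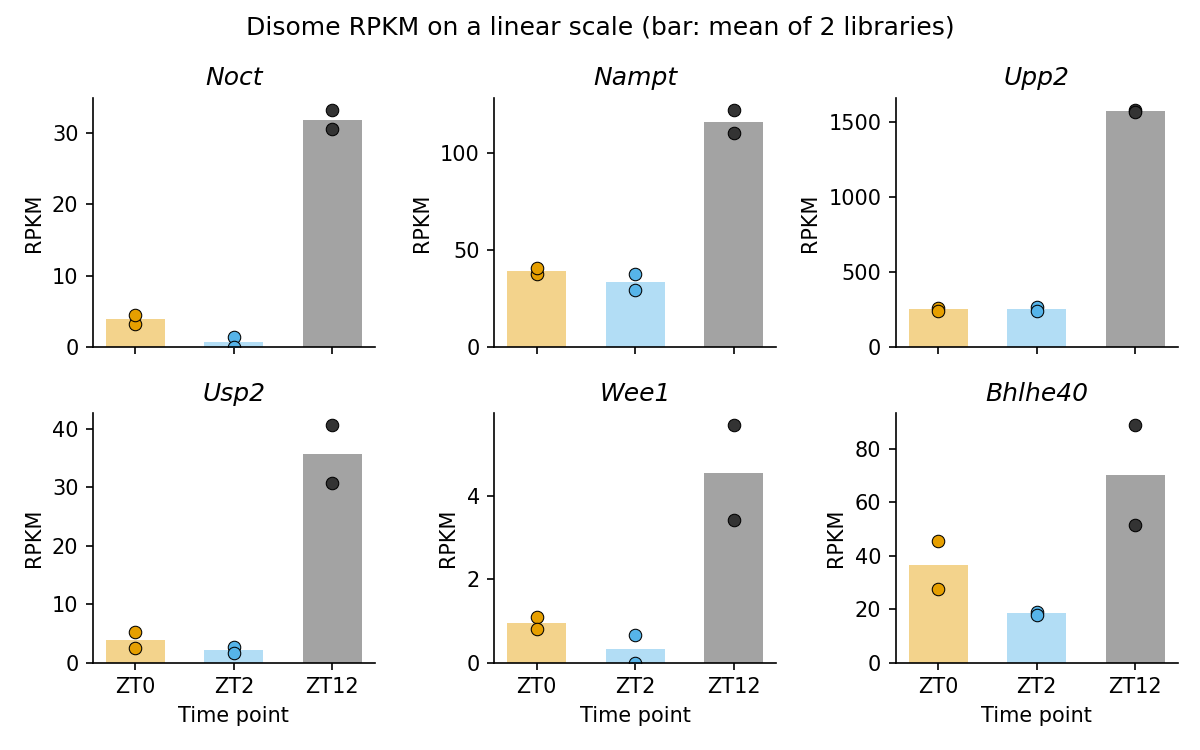
Disome RPKM of the 6 genes on linear axes that start at 0 and differ between panels. Bars are means of 2 libraries and points the single libraries at ZT0, ZT2 and ZT12. In each panel both ZT12 points lie above the other 4 points, and the ZT12 points of Bhlhe40 (51.6 and 89.0 RPKM) are further apart than those of any other gene drawn.

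Noct (ENSMUSG00000023087, chromosome 3) encodes nocturnin, a relative of the CCR4 deadenylases that removes a phosphate from NADPH and NADP+. Chromosomes here are those of RefSeq. The coding length of Noct recovered from the values was 1287 nt. In RPKM, the ZT0 libraries held Noct at 3.31 and 4.54, the ZT2 libraries at 1.51 and 0.101, and the ZT12 libraries at 30.5 and 33.2. The time points did not overlap, with ZT2 lowest, and the ZT12 libraries were close together while the ZT2 libraries were far apart. The ZT2 values rested on 12 reads and 1 read, against 30 and 45 reads at ZT0 and 514 and 528 reads at ZT12. A single read in ZT2 replicate 2 leaves an exact Poisson 95% interval of 0.00255 to 0.562 RPKM, for counting error only. Mean RPKM (± SD, n = 2) was 3.92 ± 0.87 for ZT0, 0.806 ± 1.00 for ZT2 and 31.9 ± 1.94 for ZT12. By mean level Noct stood 5828th of 8941 genes at ZT0, 8375th at ZT2 and 2062nd at ZT12.

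On the log2(RPKM + 1) scale, which understates the change of low genes, Noct at ZT12 exceeded ZT0 by 2.75 ± 0.41 (SE) and ZT2 by 4.30 ± 0.41 (SE). Only 1 of the 8355 tested genes had a larger difference from ZT2 to ZT12 (rank 2), and Noct was ranked 8 for ZT0 to ZT12. The mean RPKM ratio was 8.12 against ZT0. Pooled reads gave a ratio of 43.7 against ZT2, with an exact 95% counting interval of 25.5 to 82.4. This interval leaves out the spread between libraries, which held 12 reads and 1 read at ZT2. The size of the ZT2 to ZT12 difference followed the pseudocount, at 2.68 with 5 RPKM, 5.81 with 0.1 RPKM and 6.21 with voom on the reads. With 1 ZT2 library left out it was 4.90 (replicate 1 removed) or 3.71 (replicate 2 removed).

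Nampt (ENSMUSG00000020572, chromosome 12) encodes nicotinamide phosphoribosyltransferase, the rate-limiting enzyme that salvages nicotinamide into NAD, the cofactor that nocturnin acts upon in its phosphorylated form. Its RPKM was 37.9 and 40.8 in the ZT0 libraries, 29.5 and 37.8 in those of ZT2, and 110.1 and 122.2 in those of ZT12. The ZT12 libraries stood well clear of the rest, while the higher ZT2 library nearly met the lower ZT0 library. Its reads were 268 to 463 per library at ZT0 and ZT2 and 2124 and 2223 at ZT12. Mean levels were 39.3 RPKM ± 2.06 (SD, n = 2), 33.6 RPKM ± 5.87 (SD, n = 2) and 116.2 RPKM ± 8.60 (SD, n = 2) in that order of time. Nampt was thus 2.95-fold higher at ZT12 than at ZT0 and 3.45-fold higher than at ZT2. On the log2(RPKM + 1) scale the differences were 1.54 ± 0.19 and 1.77 ± 0.19 (SE).

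Upp2 (ENSMUSG00000026839, chromosome 2) encodes uridine phosphorylase, which splits uridine into uracil and a ribose phosphate. It was the most heavily covered of the 6 genes, with an RPKM of 262.4 and 245.2 in the ZT0 libraries, 267.3 and 243.9 in the ZT2 libraries, and 1582 and 1566 in the ZT12 libraries. ZT0 and ZT2 overlapped fully, and the ZT12 libraries differed by a factor of 1.01. Upp2 read counts were 1944 to 2227 per library before ZT12 and 24418 and 22779 at ZT12, so counting error was small beside the difference. At ZT12 its mean of 1574 RPKM ± 11.5 (SD, n = 2) placed it 85th of 8941 genes, against 494th at ZT0 (253.8 RPKM ± 12.1, SD, n = 2) and 469th at ZT2 (255.6 RPKM ± 16.6, SD, n = 2). The ratio was 6.20 against ZT0 and 6.16 against ZT2, and the log2(RPKM + 1) differences were 2.63 ± 0.15 and 2.62 ± 0.15 (SE). Between ZT0 and ZT2 the difference was 0.0095 ± 0.15 (SE), whose sign turned in 3 of 18 alternative settings. The recovered coding length of Upp2, 1178 nt, was the only one of the 6 that was no multiple of 3.

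Usp2 (ENSMUSG00000032010, chromosome 9) encodes a ubiquitin-specific protease that removes ubiquitin from other proteins. The ZT0 pair of libraries gave Usp2 an RPKM of 5.17 and 2.46, the ZT2 pair 2.75 and 1.62, and the ZT12 pair 30.7 and 40.6. The ZT0 and ZT2 libraries overlapped, and every ZT12 value was several times higher than any of them. Reads numbered 25 to 73 per library at ZT0 and ZT2 and 807 and 1005 at ZT12. Mean RPKM (± SD, n = 2) over the time points in order was 3.81 ± 1.92, 2.18 ± 0.80 and 35.7 ± 6.98. The ratio of ZT12 to ZT0 was 9.35 and that of ZT12 to ZT2 was 16.3. Its log2(RPKM + 1) differences, 2.98 ± 0.37 and 3.54 ± 0.37 (SE), were ranked 4 among the 8355 genes in both comparisons, which share the ZT12 libraries. The difference from ZT0 rested on ZT0 libraries far apart, at 3.39 without replicate 1 and 2.56 without replicate 2, and in the latter case it was below that of Noct (2.93).

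Wee1 (ENSMUSG00000031016, chromosome 7) encodes a kinase that holds back entry into mitosis by phosphorylating CDK1. It was the most thinly covered of the 6 genes, with an RPKM of 1.10 and 0.803 in the ZT0 libraries, 0 and 0.669 in the ZT2 libraries, and 5.71 and 3.43 in the ZT12 libraries. The ZT12 libraries were above the others, and the ZT2 libraries below those of ZT0. These values came from 15 and 12 reads, 0 and 10 reads, and 145 and 82 reads. No read in ZT2 replicate 1 allows a level of up to 0.251 RPKM by a limit of 3 reads. The exact Poisson 95% interval, as used for Noct, reaches 0.308 RPKM. With a mean of 1.95 RPKM over the 6 libraries, Wee1 passed the 1 RPKM filter only through its ZT12 libraries, since its mean RPKM (± SD, n = 2) was 0.951 ± 0.209 for ZT0 and 0.335 ± 0.473 for ZT2. At ZT12 the mean was 4.57 RPKM ± 1.62 (SD, n = 2). Pooled reads put ZT12 at 4.88 times ZT0 (exact 95% counting interval 3.26 to 7.56) and at 12.4 times ZT2 (6.61 to 26.2). Both intervals leave out the spread between libraries. On the log2(RPKM + 1) scale the differences were 1.49 ± 0.37 and 2.08 ± 0.37 (SE), and the latter was 0.84 with a pseudocount of 5 RPKM and 4.03 with 0.1 RPKM. The ZT2 libraries also listed the most genes at 0, 97 in replicate 1 and 250 in replicate 2. At ZT2, Noct, Usp2, Upp2 and Bhlhe40 were lower in replicate 2, and Wee1 and Nampt in replicate 1. The part of these zeros in the ZT2 values was not tested.

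Bhlhe40 (ENSMUSG00000030103, chromosome 6) encodes DEC1, a basic helix-loop-helix repressor that competes with BMAL1 and CLOCK at E-boxes and thereby feeds back on the clock itself. Levels in RPKM were 27.7 and 45.4 for the ZT0 libraries, 19.1 and 17.8 for the ZT2 libraries, and 51.6 and 89.0 for the ZT12 libraries. The order was ZT2, ZT0, ZT12 without overlap, but the replicates at ZT0 and at ZT12 differed by factors of 1.64 and 1.73. Its reads ranged from 145 to 1355 per library, so that counting intervals of the 2 libraries did not meet at ZT0 (24.3 to 31.5 and 41.3 to 49.9 RPKM) or at ZT12 (48.1 to 55.2 and 84.3 to 93.9 RPKM). Mean RPKM (± SD, n = 2) at the successive time points was 36.6 ± 12.5, 18.4 ± 0.90 and 70.3 ± 26.5. Bhlhe40 had the smallest ZT0 to ZT12 ratio of the 6 genes, 1.92, and a ZT2 to ZT12 ratio of 3.82. The log2(RPKM + 1) difference from ZT0 to ZT12 was 0.91 ± 0.33 (SE), and leaving out 1 library moved it between 0.53 (without ZT12 replicate 2) and 1.30 (without ZT12 replicate 1). From ZT2 to ZT12 it was 1.83 ± 0.33 (SE).

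**Figure D2:**
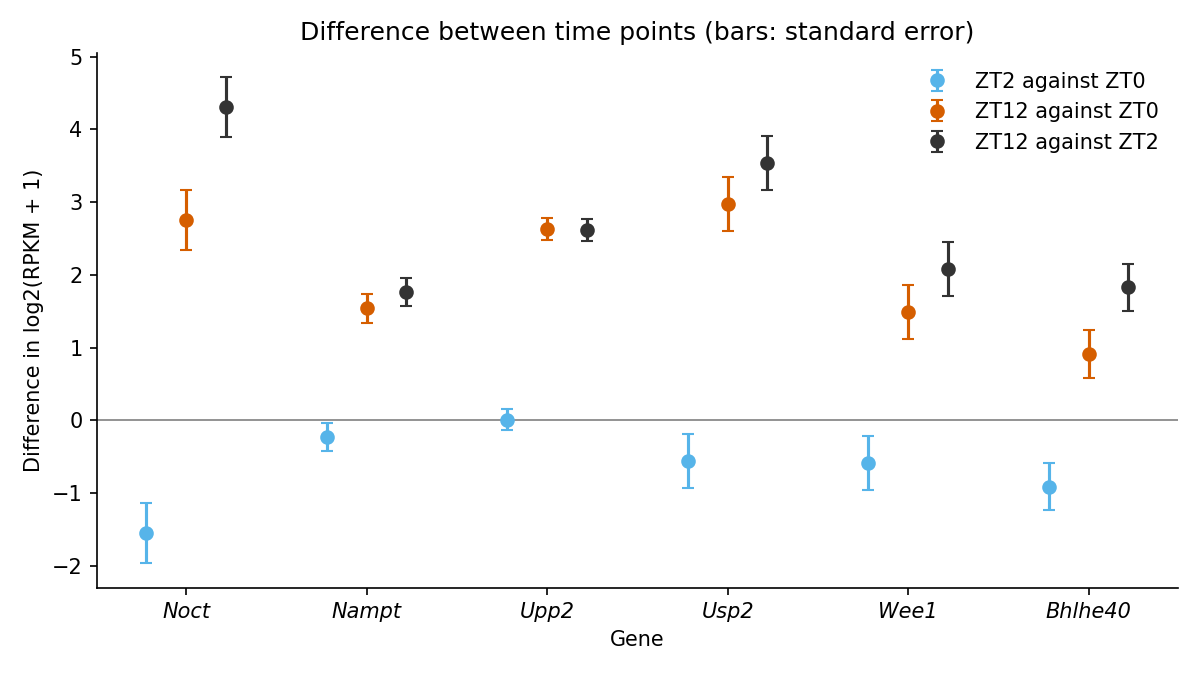
Differences in log2(RPKM + 1) between time points for each gene, with the standard error of the limma fit over all 6 libraries. ZT12 lies above 0 against both other time points in all 6 genes, from 0.91 (Bhlhe40 against ZT0) to 4.30 (Noct against ZT2), and ZT2 against ZT0 runs from -1.55 (Noct) to 0.0095 (Upp2).

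Set against all tested genes, limma counted 4 of the 6 as higher at ZT12 than at ZT0 at an adjusted p below 0.05 (Noct, Nampt, Upp2 and Usp2), where 0.395% of tested genes were called in that direction. For ZT12 against ZT2 it counted 6 of 6, where 1.07% of tested genes were called higher. These include Wee1, which passed the 1 RPKM filter only through its ZT12 libraries. The 6 genes had a median log2(RPKM + 1) difference of 2.08 against ZT0 and 2.35 against ZT2, beside -0.0072 and 0.028 for all genes tested. These comparisons share the ZT12 libraries, were in view when the genes were proposed, and are given without further reading. Upp2 was called in all 18 alternative settings of both comparisons. Against ZT0 the calls of Noct, Nampt and Usp2 were lost without any 1 of the ZT0 or ZT12 libraries, and against ZT2 those of Noct, Nampt and Usp2 were lost without either ZT12 library. The ZT2 to ZT12 call of Wee1 was lost without either ZT0 or either ZT12 library, and that of Bhlhe40 without these or without ZT2 replicate 2. Without any 1 ZT0 or ZT12 library, most calls over all tested genes were lost as well in both comparisons. Such losses are therefore not particular to these genes.

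**Figure D3:**
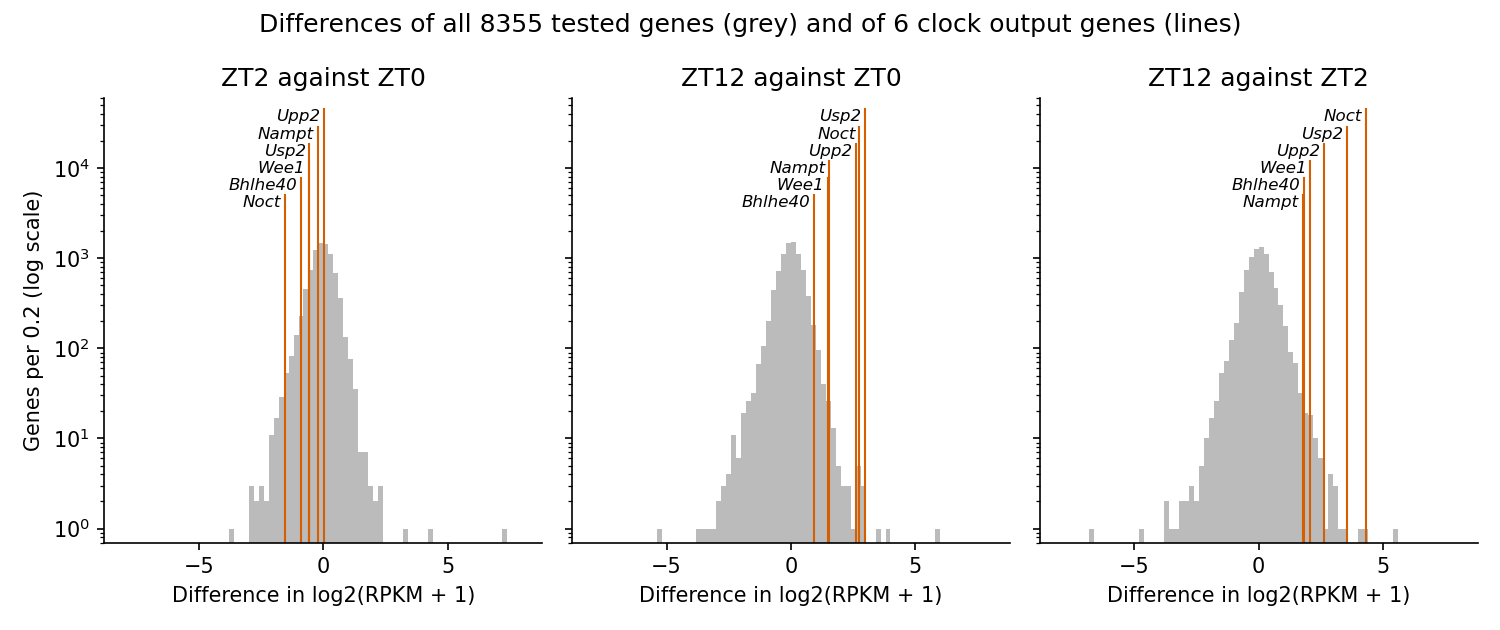
Histograms of the difference in log2(RPKM + 1) for the 8355 tested genes (grey, gene number on a log scale) with the 6 clock output genes as vertical lines whose heights only separate the labels. For both ZT12 comparisons the lines lie on the right side, between 0.91 and 4.30, and for ZT2 against ZT0 they lie between -1.55 and 0.0095.

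Between ZT0 and ZT2, the first hours of light, the mean was lower at ZT2 in 5 of the 6 genes. None of these differences was called in the fit to all 6 libraries. The share of all tested genes with a lower ZT2 mean was not counted. The median log2(RPKM + 1) difference was -0.58 for the 6 genes and -0.040 for all genes tested. Noct was 4.87-fold lower at ZT2, Bhlhe40 1.99-fold, Usp2 1.75-fold and Nampt 1.17-fold by mean RPKM, while Upp2 was level at a ratio of 1.01. For Wee1, pooled reads gave 0.394 of the ZT0 level, with an exact 95% counting interval of 0.170 to 0.839. This interval leaves out the spread between libraries, which held 0 and 10 Wee1 reads at ZT2. Both ZT2 libraries lay below both ZT0 libraries in 4 of 6 genes (Noct, Wee1, Nampt and Bhlhe40), a pattern shown by 24.9% of tested genes. The log2(RPKM + 1) differences were -1.55 ± 0.41 for Noct, -0.91 ± 0.33 for Bhlhe40, -0.59 ± 0.37 for Wee1, -0.56 ± 0.37 for Usp2 and -0.23 ± 0.19 for Nampt (SE). Limma on all 6 libraries called 0 of the 6 genes here, with 0.0239% of tested genes called in either direction. At an unadjusted p under 0.05 it counted 2 of the 6, Noct and Bhlhe40, and 1142 of all 8355, and voom on the reads called 0 of the 6. The Noct difference was -2.15 without ZT2 replicate 1, where ZT2 rested on 1 read in 1 library, and -0.96 without ZT2 replicate 2. The other differences also depended on single libraries. Nampt shrank to -0.055 without ZT2 replicate 1 and grew to -0.40 without ZT2 replicate 2. Usp2 was at -0.14 without ZT0 replicate 1 and at -0.98 without ZT0 replicate 2, and Bhlhe40 at -1.26 and -0.57 with the same libraries removed. For Usp2 the value was also -0.82 or -0.30 with the first or the other ZT2 library removed. Wee1 moved to -0.22 when its ZT2 library without reads was removed and to -0.96 when the other was.

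RPKM, being per length, also allows the 6 genes to be ordered within a time point. At ZT12 the order of the means was Upp2, Nampt, Bhlhe40, Usp2, Noct and Wee1, and the libraries of Usp2 (30.7 and 40.6 RPKM) and Noct (30.5 and 33.2 RPKM) overlapped while the other neighbours did not. At ZT0 Upp2 again led and Wee1 came last, with Nampt overlapping Bhlhe40 and Noct overlapping Usp2. At ZT2 the order was Upp2, Nampt, Bhlhe40, Usp2, Noct and Wee1, and Noct overlapped Wee1. As a share of its own ZT12 mean, the ZT0 level was 10.7% for Usp2, 12.3% for Noct, 16.1% for Upp2, 20.8% for Wee1, 33.8% for Nampt and 52.1% for Bhlhe40. At ZT2 the shares were 2.53% for Noct, 6.12% for Usp2, 7.32% for Wee1, 16.2% for Upp2, 26.2% for Bhlhe40 and 28.9% for Nampt.

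The courses of the 6 genes were also compared by Pearson's r of log2(RPKM + 1) over the 6 libraries, as a measure of likeness only, since the libraries fall into 3 time points. Upp2 was most like Nampt (r = 0.977) and Usp2 (r = 0.975), which stood at places 24 and 26 among the 8354 other tested genes. Noct was most like Usp2 among the 6 (r = 0.950, place 55). Bhlhe40 was least like Wee1 (r = 0.779, place 682) and most like Noct (r = 0.923, place 97). The tested genes most like Noct were ENSMUSG00000024222 (r = 0.999) and ENSMUSG00000040482 (r = 0.997), whose symbols are not paired with identifiers in the tables used here. The former had a mean RPKM (± SD, n = 2) of 12.1 ± 1.26 for ZT0, 6.75 ± 2.84 for ZT2 and 39.4 ± 2.18 for ZT12, with the time points in the same order as in Noct.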

How the data were processed

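The authors deposited RPKM values per Ensembl gene, 1 table per library with 8941 genes, from 6 disome libraries. The submitters' processing notes name the aligners STAR and Bowtie2 2.3.0, with CASAVA 1.82, cutadapt, edgeR and StringTie, on GRCm38.p2 and mm10. How each was used, and how genes were filtered, is not given in the sources used here. Whole reads were recovered from the RPKM steps, directly for 99.89% of genes at a relative tolerance of 5e-12, with lengths that were multiples of 3 for 95.16%. Recovered reads are a lower bound for a gene whose counts have a common divisor. The library scaling followed the upper quartile of reads to within 1.01 times.

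limma 3.58.1 in R 4.3.3 was fitted to the 8355 genes whose mean reached 1 RPKM, on log2(RPKM + 1), with 1 mean per time point, 3 residual degrees of freedom and a variance trend. Calls use Benjamini-Hochberg adjusted p-values below 0.05, computed from the whole table. Counting intervals are exact (95%, SciPy 1.17.1) and cover counting error only, as do limits from 3 reads. PCR copies are not independent molecules. The fit and the read recovery were also run on simulated data, with changes set at ZT12 only. The outcome is not given here and is not used as support.

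The member genes, the pathway lists and the tests were chosen with earlier results of these data known. The rule for genes to name was all members, list members that were called, and the 5 genes most like Noct and 2 most like each other member. No reference used here pairs Ensembl identifiers with symbols (0 genes), so the 19 lists, cell type markers included, could not be matched and give no result. Of the genes most like a member, the first 2 for Noct are printed. Same-numbered libraries were checked for pairing by the correlation of their deviations.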

Additional observations from a re-analysis of the deposited data

How the results depend on the processing

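For ZT2 against ZT0, ZT12 against ZT0 and ZT12 against ZT2 in turn, limma called 2, 79 and 172 of all tested genes. Without the variance trend the counts were 1, 32 and 80, and on the 4 libraries compared alone 1, 282 and 39. At an adjusted p of 0.1 they were 8, 179 and 423, and with voom on the recovered reads 9, 283 and 356. A pseudocount of 0.1 RPKM gave 6 for the first, and a filter at 5 RPKM gave 124 for the second. With any 1 library removed the counts ranged from 0 to 248, 3 to 283 and 5 to 597, where the library left alone borrows its spread from the other time points. Libraries sharing a number showed no common deviation (r of -0.076, -0.019 and 0.018), so no pairing was assumed, and the fit with a replicate block called 2, 51 and 113 genes. For all of these counts the cause was not tested. Scaling to the same summed RPKM turned the ZT12 against ZT2 split from 89 higher and 83 lower to 132 and 61, and shifted the median log2 difference over the whole table to 0.17 there and to -0.11 in ZT2 against ZT0.

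Of 321 recomputed differences of the 6 clock output genes, 289 moved by no more than the gene's residual SD and 32 moved further. The latter were mostly with the pseudocount or voom in Noct, Usp2 and Wee1, and 0 of those called turned sign. Many settings could not move a difference of means: other filters or variance models, the replicate block, and removal of libraries not compared. The 289 is therefore no measure of stability. Besides losses without a library, the ZT12 against ZT0 call of Noct was lost with a pseudocount of 0.1 RPKM, without the trend and with the replicate block, and that of Nampt without the trend. For ZT12 against ZT2, the call of Bhlhe40 was also lost with a pseudocount of 0.1 RPKM, without the trend and on 4 libraries, and that of Wee1 in these, with quantile normalization, with the replicate block and with voom. Wee1 fell below the 5 RPKM filter. Its ZT12 against ZT0 difference, not called in the main fit, was called on the 4 libraries compared alone, where 282 genes were called. Scaling to the same summed RPKM moved 2 of 18 mean levels by more than the replicate SD. Mean levels in RPM (recovered reads scaled to library total) have another unit and were not compared this way, but for each gene they too were highest at ZT12, as in Noct with 4.96 at ZT0, 1.01 at ZT2 and 43.0 at ZT12. Low reads limit Noct and Wee1 at ZT2 most.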
